A study of Mus musculus with 16 samples.

Results

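The 8 secreted signalling genes, Ccl2, Ccl7, Cxcl1, Cxcl5, Cxcl10, Cxcl12, Il6 and Csf1, were followed over 16 mouse pluripotent stem cell lines. They were taken as the probes whose RefSeq accession belongs to 1 of these 8 genes, which gave 11 probes of the 27656 that carry a gene name, and 8 genes of 20972. All 8 were among the 15515 genes whose signal cleared background on every array of some group, and each of the 8 did so on all 4 EpiSC arrays. The genes were picked with their values on these arrays known, so their levels and differences are a description and carry no test.

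The lines were all of strain 129/Ola, 4 per culture group, with 1 single-colour array per line. EpiSC lines were derived from the epiblast of embryos, kept in Activin A and bFGF, labelled primed, and used at passage 24 or 28. The 2iSB_LIF lines were derived from pre-implantation embryos, kept in 2i with SB431542 and LIF, labelled ground state, and used at passage 17 to 24; 2i_LIF lines differed in lacking SB431542 and were used at passage 22 to 24. The LIF_serum lines, also of pre-implantation origin, grew in LIF and serum, were labelled naive, and were used at passage 23 to 26. In common usage 2i is a pair of kinase inhibitors, of MEK and of GSK3, and SB431542 inhibits the type I receptors for activin, Nodal and TGF-beta. Serum arrays 1 and 2 carry the code LS in their descriptions and lay on slide 1, and arrays 3 and 4 carry the code LSFF and lay on slide 2. The labels do not spell these codes out, and the arrays are called LS and LSFF throughout. All EpiSC arrays lay on slide 2, and 2i_LIF array 4 and 2iSB_LIF array 3 were the ground-state arrays on that slide.

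Chemokines are small secreted proteins that draw leukocytes along a gradient by binding G-protein-coupled receptors on the moving cell. The CC ligands Ccl2 and Ccl7 act mainly on monocytes, the CXC ligands Cxcl1 and Cxcl5 on neutrophils, Cxcl10 on activated T cells, and Cxcl12 on stem and progenitor cells during development. Il6 signals to STAT3 through the same co-receptor chain, Il6st, that LIF uses, and Csf1 keeps macrophages alive. Fibroblasts and other stromal cells are known sources of most of these ligands, and transcription of many of them is turned on by NF-kB, AP-1 or interferon-stimulated factors.

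RefSeq promoters of the build GRCm38.p6, from 250 bases before to 50 bases after the start of the gene, were at hand for 5 of the 8 genes. They are shown because these are the windows in which the motifs of the named transcription factors were sought, with matches to the NF-kB consensus in capitals. The Cxcl1 window is chr5:90890995-90891294 on the plus strand, that of Cxcl10 is chr5:92348840-92349139 on the minus strand, and that of Cxcl12 is chr6:117168285-117168584 on the plus strand. The Il6 window is chr5:30012864-30013163 on the plus strand, and that of Csf1 is chr3:107760420-107760719 on the minus strand.
Cxcl1: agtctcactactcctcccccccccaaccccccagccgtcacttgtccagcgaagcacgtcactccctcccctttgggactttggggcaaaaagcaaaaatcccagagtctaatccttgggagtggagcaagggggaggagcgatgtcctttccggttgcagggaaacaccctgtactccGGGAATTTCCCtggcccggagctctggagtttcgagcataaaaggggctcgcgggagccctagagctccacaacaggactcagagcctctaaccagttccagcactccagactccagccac
Cxcl10: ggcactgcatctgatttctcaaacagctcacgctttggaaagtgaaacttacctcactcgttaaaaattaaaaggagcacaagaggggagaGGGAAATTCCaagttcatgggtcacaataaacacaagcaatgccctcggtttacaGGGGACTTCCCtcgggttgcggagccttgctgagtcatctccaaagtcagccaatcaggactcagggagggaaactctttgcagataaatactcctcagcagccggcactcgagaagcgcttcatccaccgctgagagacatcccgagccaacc
Cxcl12: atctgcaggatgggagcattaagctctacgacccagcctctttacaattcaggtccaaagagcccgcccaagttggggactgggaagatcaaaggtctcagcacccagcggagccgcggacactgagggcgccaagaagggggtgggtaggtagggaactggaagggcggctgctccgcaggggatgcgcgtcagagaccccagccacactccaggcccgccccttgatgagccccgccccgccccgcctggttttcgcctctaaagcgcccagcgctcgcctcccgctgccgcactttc
Il6: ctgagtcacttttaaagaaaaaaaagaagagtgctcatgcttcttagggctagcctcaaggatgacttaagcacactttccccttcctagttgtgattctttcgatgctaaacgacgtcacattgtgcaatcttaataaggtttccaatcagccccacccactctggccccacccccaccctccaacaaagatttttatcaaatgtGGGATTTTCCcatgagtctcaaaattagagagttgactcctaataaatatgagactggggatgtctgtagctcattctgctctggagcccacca
Csf1: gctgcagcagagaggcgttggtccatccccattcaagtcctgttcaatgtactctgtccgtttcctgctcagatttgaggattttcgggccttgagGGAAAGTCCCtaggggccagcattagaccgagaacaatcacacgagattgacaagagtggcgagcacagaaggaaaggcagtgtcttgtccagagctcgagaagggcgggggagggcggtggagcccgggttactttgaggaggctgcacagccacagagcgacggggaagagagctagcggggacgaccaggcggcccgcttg

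An NF-kB consensus match lay in 4 of these 5 windows. In Cxcl1 it lay 71 bases before the start, with a second match 1 base further on that reads on the other strand. Cxcl10 held matches 159 and 104 bases before the start, the nearer one overlapping another match shifted by 1 base, Il6 held one 44 bases before the start, and Csf1 held one on the other strand 154 bases before it. The AP-1 letters TGANTCA were found in Cxcl10 and in Il6, 74 and 249 bases before the start, and the interferon-response pattern (GAAA, any 2 bases, GAAA) in Cxcl10, 213 bases before it. The letters TATAAA, sought on the given strand only, were in none of the 5 windows, and the Cxcl12 window held none of the 4 motifs. No motif overlapped a match of another kind. Of all 32841 promoters of the same length, 8.46% held the NF-kB consensus, 7.81% the AP-1 letters, 3.44% the interferon-response pattern and 8.32% the letters TATAAA. The other 3 motifs were sought on both strands. A match is a description of these letters.

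Levels are given on the log2 scale as the processed signal relative to the array's own 75th percentile, so that 0 is a bright probe and values near −7 are those of probes at background. Different probes differ in brightness at equal RNA, so levels are compared between arrays and not between genes. The scanner software marks whether a spot is well above background, and where none of a group's arrays passed, a fold is given as a lower bound against the dimmest measurable signal. Between 51.5% and 63.8% of probes per array were well above background and no spot was saturated. Lines of 1 group correlated at 0.9901 or more in EpiSC, 0.9558 or more in 2iSB_LIF, 0.9619 or more in 2i_LIF and 0.9555 or more in LIF_serum. In these bulk samples fewer cells of a type and less RNA per cell cannot be told apart.

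Every EpiSC array exceeded every LIF_serum array for all 8 genes, and the median of the 8 differences was 4.36 on the log2 scale against 0.0725 over all genes tested. For comparison, 32.8% of all genes tested had every EpiSC array above every LIF_serum array; since the genes were picked on these values, nothing is read from the difference. Against the LS arrays all 8 genes were again higher in EpiSC on every array (background 42.4%), as they were against the LSFF arrays (background 41.2%). The size of the gap depended on which serum arrays were set beside EpiSC: the median difference was 3.55 from the LS arrays and 6.03 from the LSFF arrays. Against 2iSB_LIF (background 29.2%) and 2i_LIF (background 30.1%) all 8 were higher on every EpiSC array too. Ccl2 was 1080-fold above 2iSB_LIF and 1330-fold above 2i_LIF, and in the same order of groups Csf1 was 158-fold and 204-fold above and Cxcl12 54-fold and 66-fold. Ccl2 was well above background on 2 2iSB_LIF arrays and 1 2i_LIF array, Csf1 on 3 and 2, and Cxcl12 on 4 and 3. All of these folds but the 54-fold of Cxcl12 thus rest partly on background values. Cxcl10 was 21-fold above 2iSB_LIF. EpiSC and LSFF arrays lay on the same slide. EpiSC and LS arrays lay on different slides, so for that contrast group and slide cannot be told apart without the ground-state arrays.

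**Figure D1:**
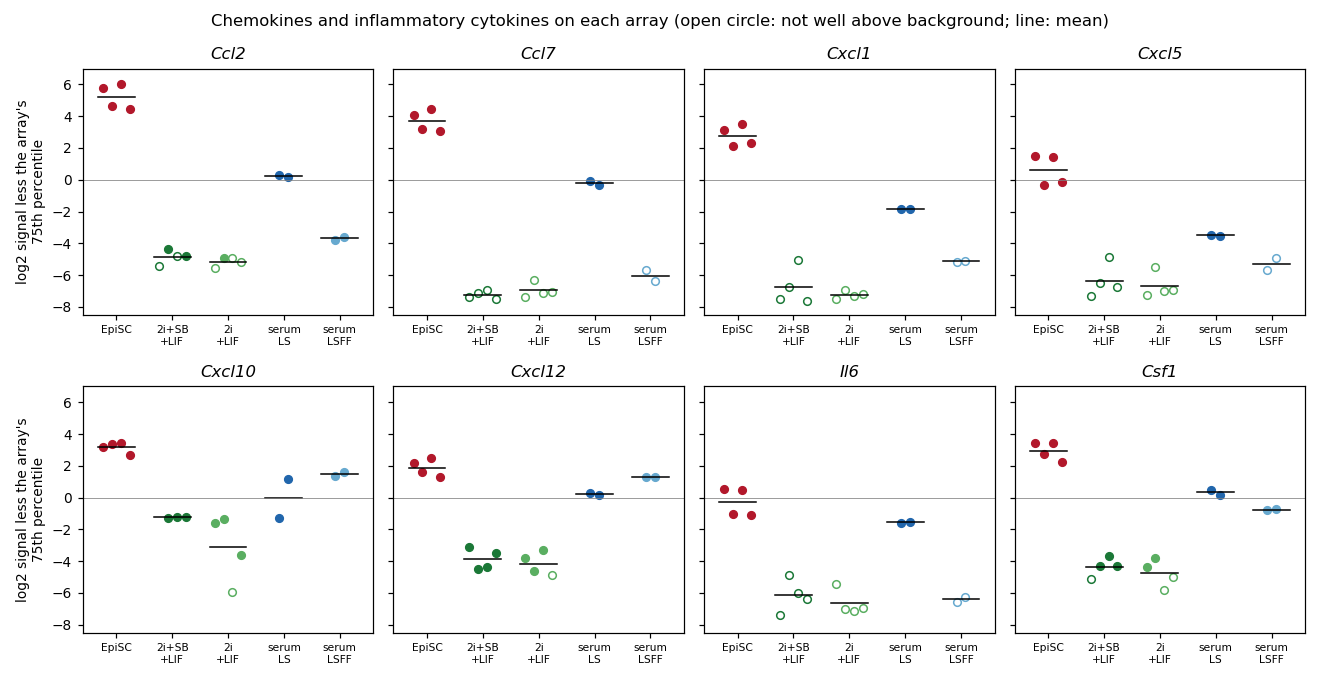
Level of each gene on each of the 16 arrays (y axis, log2 signal less the array's 75th percentile), with arrays in number order within a group, the mean of a group as a line and open circles for spots not well above background. EpiSC arrays are highest for all 8 genes, ground-state arrays are near background for most, and the LS and LSFF serum arrays lie apart.

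Ccl2, which draws monocytes through Ccr2, was at 5.75, 4.67, 6.01 and 4.46 on EpiSC arrays 1 to 4, against 0.31 and 0.16 on the LS arrays and −3.78 and −3.61 on the LSFF arrays. The 2iSB_LIF arrays stood at −5.42, −4.37, −4.80 and −4.82 and the 2i_LIF arrays at −5.57, −4.95, −4.94 and −5.18. The order was therefore EpiSC, LS, LSFF and then both ground-state groups, which overlapped each other and of which 2 and 1 arrays were well above background. EpiSC exceeded LS by 4.99 (SE 0.40) and LSFF by 8.91 (SE 0.40), that is 31.7-fold and 482-fold. LIF_serum as a whole varied by 2.27 (SD, n = 4), since the arrays fell into the LS and the LSFF pair.

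Ccl7, which like Ccl2 lies on chromosome 11 and binds several CC receptors, followed the same order of groups. It stood at 4.08, 3.22, 4.45 and 3.04 on EpiSC arrays, against −0.06 and −0.35 on LS arrays and −5.69 and −6.38 on LSFF arrays. On the 8 ground-state arrays it lay between −7.50 and −6.30, and neither these nor the LSFF arrays were well above background. EpiSC was 14.9-fold above LS (difference 3.90, SE 0.38) and at least 341-fold above LSFF. Below background the order of LSFF and ground-state arrays is not a measured one.

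Cxcl1 and Cxcl5, ligands of Cxcr2 that recruit neutrophils, were measurable in EpiSC and on the LS arrays and were not well above background on any LSFF or ground-state array. Cxcl1 was at 3.14, 2.12, 3.48 and 2.33 in EpiSC, against −1.86 and −1.82 on LS arrays and −5.15 and −5.10 on LSFF arrays. The EpiSC mean of 2.77 ± 0.65 (SD, n = 4) lay 24.3-fold above LS and at least 179-fold above LSFF. Cxcl5 was at 1.5, −0.34, 1.46 and −0.17 in EpiSC, against −3.45 and −3.54 on LS arrays and −5.67 and −4.95 on LSFF arrays. Its EpiSC mean was 17.2-fold above LS and at least 39.6-fold above LSFF. For Cxcl5 the EpiSC arrays themselves spread by 1.01 (SD, n = 4), which no other of the 8 genes reached in that group. On the ground-state arrays 2iSB_LIF array 3 was highest for both genes, at −5.07 for Cxcl1 and −4.84 for Cxcl5, neither of them well above background.

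Cxcl10, an interferon-induced ligand of Cxcr3, departed from this order. In EpiSC it stood at 3.16, 3.39, 3.46 and 2.67, and in LIF_serum at −1.27 and 1.20 on LS arrays and at 1.36 and 1.60 on LSFF arrays. LS array 1 thus lay apart from the other 3 serum arrays, and the LSFF mean was above the LS mean. The EpiSC difference from LIF_serum was 2.45 (SE 0.85), a 5.45-fold higher mean. In the ground state Cxcl10 was at −1.27, −1.22 and −1.19 on 2iSB_LIF arrays 2, 3 and 4, while array 1 was left out because its spot was marked as an outlier. The 2i_LIF arrays read −1.57, −1.33, −5.92 and −3.62 and spread widely, and array 3 was not well above background.

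Cxcl12, the ligand of Cxcr4 and Ackr3, stood at 2.19, 1.59, 2.49 and 1.32 in EpiSC, against 0.28 and 0.16 on LS arrays and 1.29 and 1.32 on LSFF arrays, so EpiSC array 4 and the higher LSFF array were almost level. The mean difference was 1.14 (SE 0.42) from LIF_serum and 0.60 (SE 0.47) from LSFF. The 2iSB_LIF arrays were at −3.09, −4.49, −4.35 and −3.50 and the 2i_LIF arrays at −3.82, −4.60, −3.31 and −4.86. A second probe of the gene gave 0.31, −0.76, 0.14 and −1.27 in EpiSC and between −2.58 and −2.02 in LIF_serum, where LS and LSFF arrays overlapped, so the higher LSFF level was seen with the first probe only. The second probe was not well above background on the measured ground-state arrays, apart from −3.19 on 2iSB_LIF array 4.

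Il6, which signals through Il6ra and Il6st, was at 0.565, −1.04, 0.46 and −1.08 in EpiSC, against −1.60 and −1.52 on LS arrays and −6.55 and −6.26 on LSFF arrays. EpiSC and LS were close: their means differed by 1.29 (SE 0.66), a 2.45-fold difference. EpiSC was at least 21.7-fold above LSFF. The ground-state arrays lay between −7.38 and −4.86 and none was well above background.

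Csf1, the macrophage growth factor, was measured by 3 probes. The brightest gave 3.43, 2.72, 3.42 and 2.23 in EpiSC, against 0.48 and 0.18 on LS arrays and −0.76 and −0.73 on LSFF arrays. EpiSC exceeded LS by 2.62 (SE 0.50) and LSFF by 3.70 (SE 0.50), or 6.15-fold and 13-fold. The 2iSB_LIF arrays averaged −4.35 ± 0.60 and the 2i_LIF arrays −4.72 ± 0.86 (SD, n = 4 each) and overlapped. By group means the other probes kept the order EpiSC, LS, LSFF, ground state. They averaged 0.75 ± 0.50 and 1.00 ± 0.51 in EpiSC and −1.36 ± 0.90 and −1.12 ± 0.89 in LIF_serum (SD, n = 4 each). On the ground-state arrays they were not well above background, except that 1 of them read −1.76 on 2i_LIF array 2, above its LSFF arrays.

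Among the EpiSC lines, array 3 was highest for 5 genes and array 1 for the other 3, and array 4 was lowest for 6 and array 2 for the other 2. The 4 arrays of these lines lay on the same slide, and array 4 came from passage 28 while the others came from passage 24.

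Most of the 8 genes were low in the ground-state cultures. In 2iSB_LIF 4 of the 8 genes (Ccl2, Ccl7, Cxcl12 and Csf1) were below LIF_serum on every array, against 15.4% of all genes tested, and 4 overlapped. In 2i_LIF 5 genes (Ccl2, Cxcl1, Cxcl10, Cxcl12 and Csf1) were below LIF_serum on every array (background 14.1%), and the other 3 overlapped the LSFF arrays at background. Ccl7 and Cxcl1 were at background on the ground-state and on the LSFF arrays alike, so their order against LSFF is not a measured one and these counts rest on it. The differences were −4.62 (SE 0.42) in 2iSB_LIF and −4.91 (SE 0.42) in 2i_LIF for Cxcl12, and −4.14 (SE 0.44) and −4.51 (SE 0.44) for Csf1. The median over the 8 genes was −3.20 in 2iSB_LIF and −3.80 in 2i_LIF, with medians over all genes of 0.0186 and 0.0238, and both include genes at background.

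The gap was wider against the LS arrays than against the LSFF arrays. Against LS, 7 of the 8 genes were lower on every 2iSB_LIF array (background 22.8%) and all 8 on every 2i_LIF array (background 20.2%), with medians of −4.64 and −5.06. Against LSFF, 5 genes were lower on every array of 2iSB_LIF (background 28.3%) and 5 on every array of 2i_LIF (background 27.4%), among them Ccl7 in 2iSB_LIF and Cxcl1 in 2i_LIF, which were at background on both sides. For Ccl7, Cxcl1, Cxcl5 and Il6 the LSFF and the ground-state arrays were all below the limit of measurement, so no fold is given between them. Within slide 2 the single 2iSB_LIF array there differed from the LSFF arrays by 0.06 for Cxcl1, 0.47 for Cxcl5 and 0.41 for Il6, all at background and in the opposite direction to the whole groups. Cxcl12 and Csf1 were 35.8-fold and 12.2-fold lower in 2iSB_LIF, and 43.7-fold and 15.7-fold lower in 2i_LIF, than on LSFF arrays, and Ccl2 was 2.23-fold and 2.77-fold lower. The folds of Csf1 and Ccl2, and that of Cxcl12 in 2i_LIF, rest partly on ground-state arrays not well above background. Cxcl10 was 6.52-fold lower in 2iSB_LIF (3 arrays) than on LSFF arrays.

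**Figure D2:**
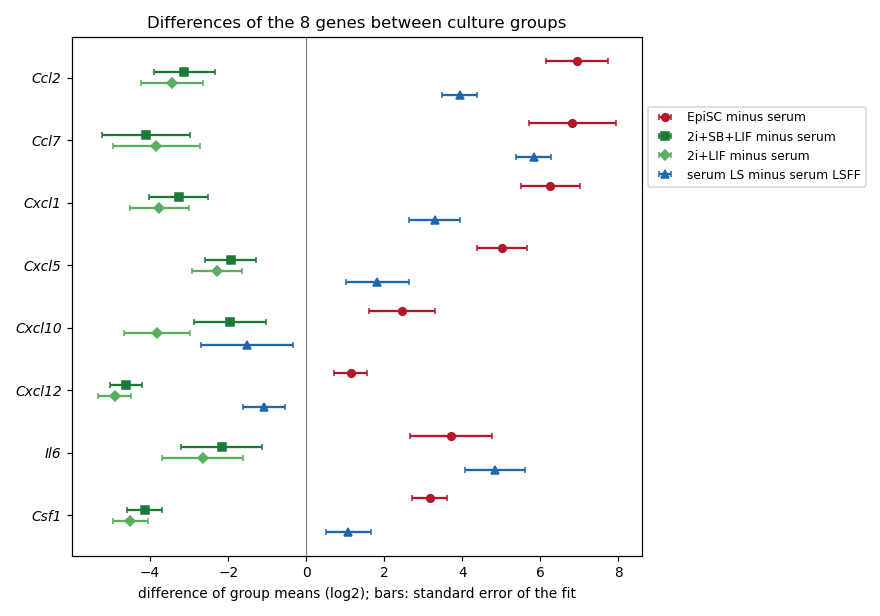
Difference between group means for each gene (x axis, log2) in 4 comparisons, with the standard error of the fit as bars; the LS minus LSFF difference is taken without a slide term. EpiSC minus LIF_serum is above 0 for all 8 genes, both ground-state comparisons are below 0, and LS minus LSFF is above 0 for 6 genes and below 0 for Cxcl10 and Cxcl12. The first 3 comparisons share the LIF_serum arrays.

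Between 2i with and without SB431542 the arrays overlapped for 7 of the 8 genes. Of these, Ccl7, Cxcl1, Cxcl5 and Il6 were well above background on none of the 8 ground-state arrays, so a difference could not be measured for them. Cxcl10 was the exception, where all 3 measured 2iSB_LIF arrays exceeded all 4 2i_LIF arrays (0.902% of all genes tested did so in this direction). Its difference of 1.89 (SE 0.92) rested on 2i_LIF arrays 3 and 4, at −5.92 and −3.62, since arrays 1 and 2, at −1.57 and −1.33, were almost level with the 2iSB_LIF arrays.

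Between the serum arrays, 6 genes were higher on both LS arrays than on both LSFF arrays (background 34.6%), and Cxcl10 and Cxcl12 were lower (background 41.8%). The LS level exceeded the LSFF level by 3.93 (SE 0.46) for Ccl2, 15.2-fold, and by at least 22.8-fold for Ccl7, 7.35-fold for Cxcl1, 2.30-fold for Cxcl5 and 8.89-fold for Il6. Csf1 was 2.11-fold higher on LS arrays, a difference of 1.08 (SE 0.58). The difference was −1.08 (SE 0.54) for Cxcl12 with the first probe and −1.52 (SE 1.17) for Cxcl10. For Cxcl10 it rested on single arrays: in the fit with a slide term it was −0.64 without LS array 1 and −3.11 without LS array 2. The codes coincide with the slides, so the LS against LSFF contrast was also fitted with a slide term drawn from the ground-state arrays. Over the alternatives to that fit Ccl2 differed by 3.07 to 4.59.

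The sum of fibroblast markers was highest in EpiSC and lowest in the ground-state groups, with LIF_serum between, as were the means of the 8 genes. Between LS and LSFF the sum was higher on LS, as 6 of the genes were, while Cxcl10 and, by its first probe, Cxcl12 were lower. The summed signal of 20 fibroblast markers, in units of the array's 75th percentile, was 326, 250, 352 and 225 on EpiSC arrays, 4.76 to 7.15 on 2iSB_LIF arrays and 4.72 to 7.09 on 2i_LIF arrays, against 145 and 113 on LS and 18.0 and 19.4 on LSFF arrays. The arrays thus fell in the order EpiSC, LS, LSFF and ground state, and within EpiSC arrays 3 and 1 were the highest. Array 3 was among the upper 2 EpiSC arrays for all 8 ligand genes, and array 1 for 7 of them. All 20 markers were well above background in every EpiSC and LS array, 15 and 17 on the LSFF arrays, and 6 to 11 on ground-state arrays. Of the 20, 17 rose in EpiSC against LIF_serum by limma's test (background 18% of all genes). In 2iSB_LIF 16 fell (background 13.3%) and in 2i_LIF 15 fell (background 12.1%). On LS arrays 11 were higher than on LSFF arrays (background 4.35%). Some markers, among them Col5a2, Postn, Lum and Dcn, entered the tests through the EpiSC arrays alone and could come out only as higher there. Of the defining markers, Postn, Lum and Dcn, a matricellular protein and small proteoglycans, were not well above background on any ground-state array that measured them, while Col1a1 was above it on all 8. The part of such cells in the levels of the 8 genes was not tested.

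The summed signal of 11 leukocyte markers was 8.02 to 9 in EpiSC, 9.01 to 15 in 2iSB_LIF and 10.2 to 17.2 in 2i_LIF, against 14.0 to 17.1 in LIF_serum, so EpiSC arrays were lowest. Of the 11, 8 to 10 were well above background on EpiSC arrays, 5 to 7 on 2iSB_LIF and on 2i_LIF arrays, 9 and 10 on LS arrays and 5 and 6 on LSFF arrays. Some dim markers were thus detected mainly in EpiSC and LS: Lyz2, a lysozyme of myeloid cells, averaged −4.33 ± 0.49 in EpiSC (SD, n = 4) and was well above background on all EpiSC and LS arrays and on no LSFF or ground-state array. Ptprc, the pan-leukocyte phosphatase, stayed near background in all 4 EpiSC lines. Tyrobp, an adaptor protein of myeloid and NK cells, averaged −4.09 ± 0.42 in EpiSC (SD, n = 4) and was above background on all 4, against −3.13 and −2.87 on LS arrays, and it was not well above background on LSFF or ground-state arrays. Itgam, an integrin of myeloid cells, was well above background on every array, at 2.79 ± 0.10 in EpiSC and 3.36 ± 0.18 in LIF_serum (SD, n = 4 each). Levels were summed unlogged, so Itgam made up most of the leukocyte sum in both of these groups. Of the 9 leukocyte markers tested, 1 rose and 3 fell in EpiSC against LIF_serum by limma's test (background 18% and 15.6%). In 2iSB_LIF 1 rose and 3 fell (background 6.81% and 13.3%), as in 2i_LIF (background 6.25% and 12.1%). On LS against LSFF arrays 3 were higher and none lower (background 4.35% and 1.94%). The part of leukocytes in the levels of the 8 genes was not tested. The pluripotency markers Pou5f1, Sox2, Nanog, Lin28a, Sall4 and Utf1 were all well above background on every array. Naive markers summed to 15.3 to 19.6 in EpiSC, against 142 to 263 in LIF_serum.

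**Figure D3:**
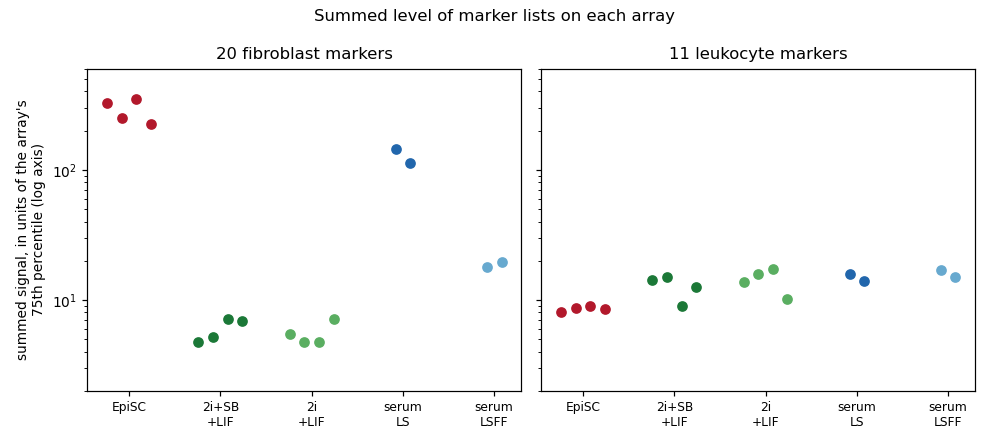
Summed signal of 20 fibroblast markers (left) and 11 leukocyte markers (right) on each array, in units of the array's 75th percentile on a log axis. The fibroblast sum runs from 225 to 352 in EpiSC down to 4.72 to 7.15 in the ground-state groups, with LS at 113 and 145 and LSFF at 18.0 and 19.4, while the leukocyte sum is lowest in EpiSC. Itgam makes up most of the leukocyte sum in EpiSC and LIF_serum.

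Of 10 receptors of the 8 ligands, 5 were not tested. Ccr1, Ccr2, Ccr3, Cxcr2 and Cxcr3, the leukocyte receptors of the CC ligands, of Cxcl1 and Cxcl5, and of Cxcl10, failed the background filter, which asks for all arrays of some group. Cxcr3 was well above background on 2 EpiSC arrays, at −4.54 and −2.91, on 1 2iSB_LIF array at −3.84, on 3 2i_LIF arrays at −3.78, −4.76 and −4.53, and on no LIF_serum array. Ccr3 was above it on 2 2iSB_LIF arrays, at −4.76 and −4.31, and on LS array 1 at −1.73, and Ccr1 on LS array 1 alone at −3.62. The other 5 receptors were tested with limma over all 15515 genes. A call needed an adjusted p under 0.05 and a 2-fold difference, and since 1 line gave 1 array, p-values measure the spread between lines. Of the 2 receptors of Cxcl12, Cxcr4 rose in EpiSC by 2.70 (SE 0.46, adjusted p = 0.00018), with means of −2.27 ± 0.34 in EpiSC and −4.97 ± 0.51 in LIF_serum (SD, n = 4 each), and the scavenging receptor Ackr3 did not pass the test there (0.78, SE 0.42, adjusted p = 0.13). For Cxcr4 only 2 of the 4 serum arrays were well above background. It entered the tests through the EpiSC arrays alone, so its p-value does not test the direction. Ackr3 instead rose in 2iSB_LIF by 2.12 (SE 0.42, adjusted p = 0.0014) and in 2i_LIF by 1.5 (SE 0.42, adjusted p = 0.014), where Cxcl12 itself was 24.6-fold and 30.0-fold lower; both calls were lost within slide 1, the 2iSB_LIF call also with passage as a covariate and the 2i_LIF call also against LS alone.

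Il6ra, the receptor of Il6, averaged 0.64 ± 0.81 in 2iSB_LIF and 1.25 ± 0.44 in 2i_LIF, against −0.74 ± 0.55 in LIF_serum (SD, n = 4 each), rises of 1.38 (SE 0.36, adjusted p = 0.0091) and 1.99 (SE 0.36, adjusted p = 0.00091). The co-receptor Il6st, which LIF also uses, rose by 1.03 in 2iSB_LIF (SE 0.19, adjusted p = 8e-04) and by 1.04 in 2i_LIF (SE 0.19, adjusted p = 0.00086), just past the 2-fold minimum. Within slide 1 and with passage as a covariate the 2iSB_LIF calls of both genes were lost, and the 2i_LIF call of Il6st was lost within slide 2 and with passage as a covariate. Both Il6st calls were also lost with quantile normalization, with the deposited log2 values and against LS alone, and the 2iSB_LIF call with normexp background correction. In EpiSC neither passed, with 0.97 (SE 0.36, adjusted p = 0.034) for Il6ra, under 2-fold, and 0.11 (SE 0.19, adjusted p = 0.64) for Il6st. Csf1r, the receptor of Csf1, fell in EpiSC by 1.19 (SE 0.46, adjusted p = 0.042), and this call was lost against LSFF alone (−0.76), with the slide as a block (−0.52) and with median centring (−0.65). None of the 5 receptors was called between 2iSB_LIF and 2i_LIF or between LS and LSFF.

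**Figure D4:**
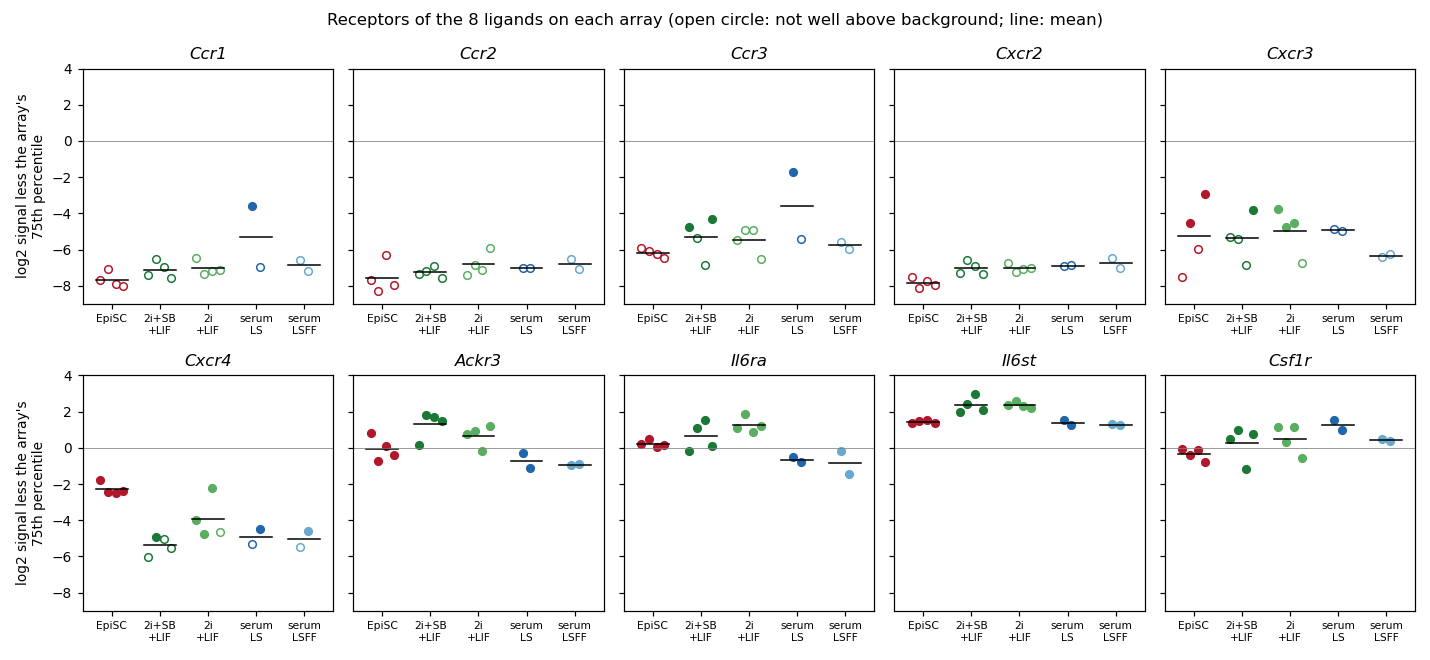
Level of the 10 receptors on each array, drawn as for the ligands (y axis, log2 signal less the array's 75th percentile; open circles, not well above background; lines, group means). Ccr1, Ccr2, Ccr3, Cxcr2 and Cxcr3 have open circles in every group, with Cxcr3 measured on 2 EpiSC, 1 2iSB_LIF and 3 2i_LIF arrays. The mean of Cxcr4 is highest in EpiSC, though 2i_LIF array 3, at −2.24, lies within the EpiSC range. The means of Ackr3, Il6ra and Il6st are highest in the ground-state groups.

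Beyond the 8 genes, 135 other chemokines, cytokines, receptors and regulators were listed, of which 134 had a probe and 92 were tested. In EpiSC 45 of the 92 rose and 12 fell against LIF_serum, together 62.0% of those tested, where 33.6% of all genes were called (18% higher and 15.6% lower). Of all calls 53.4% were higher in EpiSC, and 75.9% with median centring, which moved the median of all genes to 0.61. The list was drawn up with earlier results of these arrays known, so its share is a description. Some listed genes entered through the EpiSC arrays alone, among them Ccl6, Ccl8, Ccl11, Cxcl2, Ppbp, Csf2, Il18, Cxcr4, Il1rl1, Osmr, Vcam1 and Irf7. Such genes could come out only as higher in EpiSC, so the balance of rises and falls depends on the filter. Ccr10 entered through the 2iSB_LIF arrays alone and Il23a through the LIF_serum arrays alone, so the filter set their direction too. With no filter on dim probes 45 of 134 listed genes were higher and 24 lower, against 2860 and 4008 of all 20972 genes. In 2iSB_LIF 17 rose and 18 fell (38.0%, background 20.1% of all genes, 6.81% higher and 13.3% lower). In 2i_LIF 11 rose and 18 fell (31.5%, background 18.3%, 6.25% higher and 12.1% lower). On LS against LSFF arrays 11 were higher and 3 lower (15.2%, background 6.29%, 4.35% higher and 1.94% lower). Of all calls between LS and LSFF 69.2% were higher on LS, and 79.6% with median centring. None was called between 2iSB_LIF and 2i_LIF, where limma called 13 genes in all (0.0838%) and 12 of the listed genes had an unadjusted p under 0.05.

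**Figure D5:**
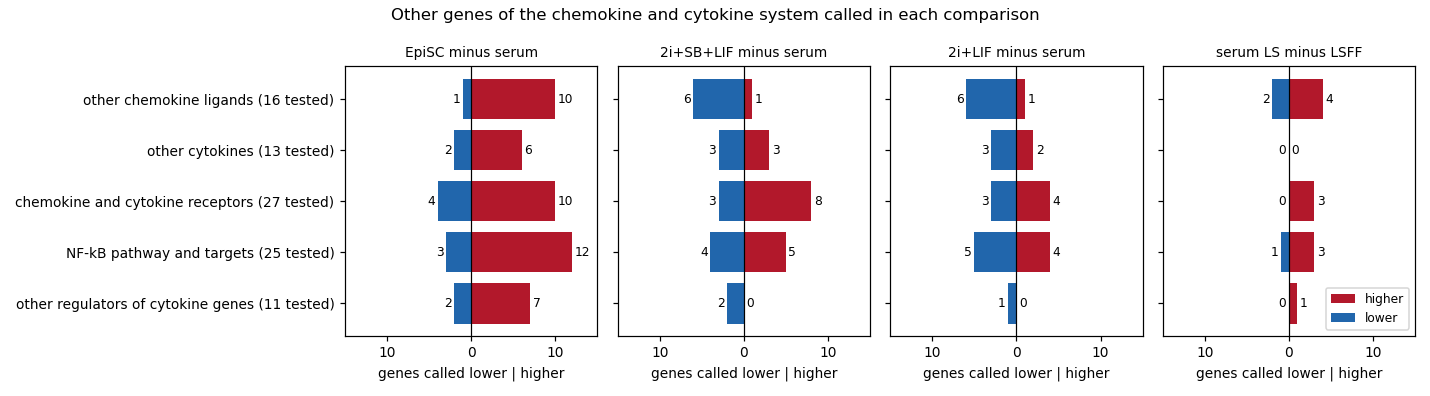
Number of listed genes, the 8 ligands left out, called higher (right, red) or lower (left, blue) in each of 4 comparisons, by list. In EpiSC more genes of every list were higher than lower, and among the other chemokine ligands 10 were higher and 1 lower in EpiSC, while 1 was higher and 6 were lower in each ground-state group. Genes that entered the tests through the EpiSC arrays alone are included.

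Of 16 other chemokine ligands tested, 10 rose in EpiSC and 1 fell, a balance that depends on the filter. Ccl8, Ccl11, Cxcl2 and Ppbp entered the tests through the EpiSC arrays alone, so their p-values do not test the direction. Ccl8, a monocyte attractant, stood at −0.28 ± 0.48 in EpiSC and −5.33 ± 1.33 in LIF_serum (SD, n = 4 each) and rose by 5.05 (SE 0.55, adjusted p = 3.2e-06). Only 1 of the 4 serum arrays was well above background for Ccl8, so this size rests partly on background values. The eosinophil attractant Ccl11 was at least 7.97-fold higher (adjusted p = 9.5e-08), Cxcl2, a close relative of Cxcl1, at least 8.67-fold (adjusted p = 1.7e-07), and Ppbp, which also binds Cxcr2, at least 8.10-fold (adjusted p = 4.4e-06), as none of them was well above background in LIF_serum. In the ground state 1 rose and 6 fell in each group. Cxcl16, a membrane-bound ligand of Cxcr6, fell by 3.95 (SE 0.64, adjusted p = 0.00037) in 2iSB_LIF and by 3.59 (SE 0.64, adjusted p = 0.00084) in 2i_LIF. Ccl6 fell in 2iSB_LIF (adjusted p = 0.0023) and in 2i_LIF (adjusted p = 0.003), well above background on no ground-state array and on 2 of 4 serum arrays. Neither Ccl6 call remained within slide 2, with normexp or with the deposited log2 values. Cxcl17 rose by at least 2.12-fold in 2iSB_LIF and 1.95-fold in 2i_LIF (adjusted p = 2e-05 and 3.4e-05), calls that were lost with normexp background correction. Ccl17 differed by −1.70 in 2iSB_LIF and −1.49 in 2i_LIF (SE 0.48 each, adjusted p = 0.015 and 0.03) and lost both calls within slide 1. Both Ccl17 calls were also lost with normexp, with the deposited log2 values, against LS alone and with passage as a covariate.

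Of 13 other cytokines, 6 rose and 2 fell in EpiSC. Il18, an activator of interferon-gamma production, rose by 3.06 (SE 0.58, adjusted p = 0.00046) and Csf2, a growth factor of granulocytes and macrophages, by at least 2.75-fold (adjusted p = 1e-07), a call lost with normexp. For Il18 only 2 of the 4 serum arrays were well above background. Il18 and Csf2 entered the tests through the EpiSC arrays alone, so their p-values do not test the direction. Osm, a relative of Il6 and LIF, fell by at least 5.28-fold (adjusted p = 1.6e-06) and Il23a by at least 8.50-fold (adjusted p = 0.00016). Il23a entered the tests through the LIF_serum arrays alone, so its p-value does not test the direction. Of the 13, 3 rose and 3 fell in 2iSB_LIF, and 2 rose and 3 fell in 2i_LIF. The alarmin Il33 fell by 3.04 (SE 0.53, adjusted p = 0.00057) in 2iSB_LIF, a call lost within slide 1, and at least 5.90-fold (adjusted p = 4.4e-05) in 2i_LIF. Il11, which shares Il6st with Il6, fell, with differences of −2.21 in 2iSB_LIF and −2.15 in 2i_LIF (SE 0.38 each, adjusted p = 0.00054 and 0.00077). Il34, the second ligand of Csf1r, rose by 1.87 in 2iSB_LIF and 2.19 in 2i_LIF (SE 0.48 each, adjusted p = 0.0082 and 0.0033), where Csf1 was at its lowest, and these calls were lost within slide 1. The 2iSB_LIF call of Il34 was also lost with passage as a covariate.

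Of 27 tested receptors, 10 rose and 4 fell in EpiSC. Il1rl1, the receptor of Il33, rose by 7.62 (SE 0.94, adjusted p = 9.2e-06), and its 4 EpiSC arrays read 4.12, 2.77, 3.93 and 2.68, against −1.64 and −2.07 on LS arrays and background on LSFF arrays. Osmr, the receptor chain of Osm, rose by 4.52 (SE 1.09, adjusted p = 0.0028) and Il1r1, the receptor of interleukin 1, by 3.63 (SE 0.51, adjusted p = 3.4e-05). Of the serum arrays only the 2 LS arrays were well above background for Osmr, Il1r1 and Il1rl1, so these sizes rest partly on background values. Il1rl1 and Osmr entered the tests through the EpiSC arrays alone, so their p-values in EpiSC do not test the direction. In 2iSB_LIF 8 rose and 3 fell, and in 2i_LIF 4 rose and 3 fell. Osmr fell in 2iSB_LIF (adjusted p = 0.011) and 2i_LIF (adjusted p = 0.012). So did Il1rl1 (adjusted p = 0.027 in 2iSB_LIF and 0.034 in 2i_LIF). Both were well above background on no ground-state array and on the 2 LS arrays of the 4 serum arrays, so no size is given, and none of the 4 calls was made within slide 2, where the serum arrays are LSFF. The Il1rl1 calls were also lost with normexp, with the deposited log2 values and against LSFF alone. Ccr10 rose in 2iSB_LIF by at least 3.21-fold (adjusted p = 0.0065) and lost that call within either slide. The Ccr10 call was also lost with normexp, against LSFF alone and with passage as a covariate. Ccr10 entered the tests through the 2iSB_LIF arrays alone, so its p-value does not test the direction.

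Of 25 genes of the NF-kB pathway, 12 rose and 3 fell in EpiSC. Vcam1 entered the tests through the EpiSC arrays alone, so its p-value in EpiSC does not test the direction. Ptgs2, the inducible cyclooxygenase, rose by 4.63 (SE 0.72, adjusted p = 8.7e-05), Vcam1, an adhesion molecule, by 4.39 (SE 0.66, adjusted p = 5.7e-05) and Tnfaip3, a feedback inhibitor of the pathway, by 2.76 (SE 0.37, adjusted p = 2.3e-05). Icam1, another adhesion molecule and NF-kB target, fell by 3.47 (SE 0.21, adjusted p = 5.3e-09), so the targets did not move one way. In 2iSB_LIF 5 rose and 4 fell and in 2i_LIF 4 rose and 5 fell. Vcam1, well above background on no ground-state array and on 3 of 4 serum arrays, fell in 2iSB_LIF (adjusted p = 0.00027) and 2i_LIF (adjusted p = 0.00035). Tnfaip2 also fell, with −2.84 in 2iSB_LIF and −2.19 in 2i_LIF (SE 0.225 each, adjusted p = 8.1e-07 and 9.8e-06), and Ptgs2 fell at least 10.8-fold in 2iSB_LIF (adjusted p = 8.7e-05) and by 3.97 (SE 0.72, adjusted p = 0.00094) in 2i_LIF. Nfkbie, an inhibitor of NF-kB, rose by 1.70 in 2iSB_LIF and 1.57 in 2i_LIF (SE 0.40 each, adjusted p = 0.0052 and 0.0092), calls that were lost against LS alone and within slide 1. Its 2iSB_LIF call was also lost with passage as a covariate.

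Of 11 other regulators, 7 rose and 2 fell in EpiSC. Irf7 entered the tests through the EpiSC arrays alone, so its p-value does not test the direction. Zfp36, which promotes decay of cytokine mRNAs, stood at 0.185 ± 0.062 in EpiSC and −2.70 ± 0.19 in LIF_serum (SD, n = 4 each) and rose by 2.89 (SE 0.47, adjusted p = 0.00013). The activator Cebpd rose by 2.55 (SE 0.31, adjusted p = 7.4e-06), the endonuclease gene Zc3h12a by 1.84 (SE 0.30, adjusted p = 0.00012) and Irf7, an interferon regulatory factor, at least 1.22-fold (adjusted p = 0.00022), and the calls of the last 2 were lost with normexp. In 2iSB_LIF none rose and 2 fell, Zfp36 by 2.19 (SE 0.47, adjusted p = 0.0029) and Socs1, an inhibitor of cytokine receptors, by 1.45 (SE 0.31, adjusted p = 0.0026), of which the Zfp36 call was lost within slide 1 and with passage as a covariate. In 2i_LIF none rose and only Cebpb fell, by 1.06 (SE 0.24, adjusted p = 0.004), a call lost within either slide, with normexp and against LSFF alone.

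Between LS and LSFF arrays, in the fit with a slide term, 4 other chemokine ligands were higher on LS and 2 were lower. The adjusted p-values are from that fit, while the fold bounds are from the levels without a slide term. In the bounds code and slide cannot be told apart. Pf4, a platelet chemokine, was at least 4.91-fold higher (adjusted p = 0.00024) and Ccl6 at least 2.10-fold (adjusted p = 0.0018), while the difference was −3.32 (SE 0.73, adjusted p = 0.019) for Cxcl16 and −2.83 (SE 0.35, adjusted p = 7e-04) for Ccl17, and the Ccl17 call was lost without the slide term, where it was at −1.05. The receptors Osmr and Il1rl1 were at least 19.5-fold and 7.26-fold higher on LS arrays (adjusted p = 3.8e-05 and 0.00024) and Vcam1 was higher by 3.65 (SE 0.48, adjusted p = 0.0012). With normexp the calls of Ccl6, Ccl17 and Il1rl1 between LS and LSFF were lost. Of the 13 other cytokines none was called. With 2 arrays on each side, the spread was estimated over all 16 arrays.

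The genes whose levels ran most like each member over the 16 arrays were sought among all tested genes by Pearson correlation of log2 values. For Ccl2 they were Il1rl1 (0.9952), Mmp3 (0.9949) and Ppbp (0.9939), and for Ccl7 Fibin (0.9964), Apbb1ip (0.9963) and Slc5a7 (0.9962). Cxcl1 ran with Ppbp (0.9879), Ifi207 (0.9868) and Sprr2k (0.9863), and Cxcl5 with Lum (0.9813), Cp (0.9763) and Hoxa11 (0.9762). These correlations follow the split of the 16 arrays into culture groups. For Cxcl12 the nearest genes were Pdlim2 (0.9883), Tagln (0.9853) and Gbp2 (0.9831), for Il6 Tnfrsf11b (0.9776), Gpr176 (0.9738) and Ch25h (0.9735), and for Csf1 S100a6 (0.9923), Dab2 (0.9867) and Twist2 (0.9861). Cxcl10, over the 15 arrays that measured it, ran with Chst7 (0.9662), Rflnb (0.9645) and Igsf11 (0.9558), a lower correlation than for any of the other 7 genes. Lum and Twist2 are among the 20 fibroblast markers.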

How the data were processed

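Total RNA of 16 mouse lines was measured on single-colour arrays. Per the file headers, the deposited scanner files hold intensity values from Agilent Feature Extraction 10.7.1.1, of which its processed signal was used. The authors also deposited a table of log2 values, which holds 42316 probes with column medians of 7.51 to 7.58; how it was normalized is not stated in the labels, limma is named in the submitters' processing notes, and it served as an alternative. Its scale was read by setting each column against that array's signal (correlation 0.989 or more and slope 0.882 to 0.996), so its direction is that of the signal.

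Probes were named through their RefSeq accession and a reference table of GRCm38.p6; the array header names mm9, so no gene coordinates are taken from that table. Outlier spots (100 to 321 per array) were left out and spots of 1 probe averaged. Genes entered the tests when their signal exceeded background across a whole group, and the brightest probe stood for a gene. Signals were scaled to the 75th percentile. The 75th percentile itself ranged from 646 to 1039. Group means were fitted over all arrays with limma 3.58.1 in R 4.3.3 (lmFit, eBayes), with Benjamini-Hochberg adjustment over 15515 genes; the script was tested on simulated data. The LS against LSFF fit had a slide term. No spot mean was in the files, so the normexp alternative (offset 50) used spot and background medians.

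The 8 genes, the gene lists and the alternatives were chosen with earlier results of these data known. Genes named besides the 8 are the 10 receptors and, per comparison and list, up to 4 called genes of largest difference, of which the text gives most; for likeness, the 3 genes of highest correlation. The number of arrays limits the precision.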

Additional observations from a re-analysis of the deposited data

Results flagged for a closer look

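Of 191 groups of 4 arrays, over 48 named genes, 9 held an array whose gap to its nearest neighbour, as a share of the whole range, exceeded Dixon's critical value for 4 values; chance alone gives about 1 in 20. Among the 8 ligands, Cxcl10 read −1.27 on LIF_serum array 1, with 1.20 as the next value, and Il6 read −5.46 on 2i_LIF array 1, which was not well above background. Among the other genes, Cxcr4 was high on EpiSC array 1 at −1.76 and Cxcl16 on EpiSC array 3 at −0.82. In 2iSB_LIF, array 1 was high for Il18 at −3.08 and low for Il33 at −7.44. Il11 was low on 2i_LIF array 4 at −4.23. In LIF_serum, Csf2 read −6.59 on array 3, which was not well above background, and Tnfaip3 was low on array 1 at −1.24.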

How the results depend on the processing

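The EpiSC difference from LIF_serum was above 0 for all 8 genes under each of 19 alternatives, with Cxcl12 ranging from 0.595 to 1.68 and Ccl2 from 4.99 to 8.91. In 2iSB_LIF against LIF_serum, Cxcl1, Cxcl5 and Il6 turned to 0.059, 0.471 and 0.408 within slide 2, and Il6 to 0.252 against LSFF alone; all were below background there, and the cause was not tested. For 2i_LIF against LIF_serum, limma called 2841 genes, and 1687 within slide 1; of the listed genes it called 29 (11 higher, 18 lower), 17 within slide 1 (4 and 13) and 18 with normexp (8 and 10), while the balance turned within slide 2 (25 and 12) and against LSFF alone (18 and 15). For 2iSB_LIF against LIF_serum it called 3115 genes, 1761 within slide 1, 4969 within slide 2 and 1901 with passage as a covariate; of the listed genes it called 35 (17 higher, 18 lower), 17 within slide 1 (3 and 14), 19 with normexp (7 and 12) and 19 with passage (4 and 15), and against LS alone 8 higher and 21 lower. For 2iSB_LIF against 2i_LIF it called 13 genes, 2 within slide 1, 46 with passage and 2236 within slide 2, where 13 listed genes were called and each group had 1 array. Between LS and LSFF 8 listed genes were called with normexp, against 14. The within-slide fits hold fewer arrays; for the other settings the cause was not tested. Leaving out 1 array gave 4957 to 5168 genes and 52 to 59 listed genes for EpiSC, 2398 to 3010 and 23 to 31 for 2i_LIF, and 2676 to 3424 and 28 to 34 for 2iSB_LIF. It gave 11 to 27 genes for 2iSB_LIF against 2i_LIF (27 without 2iSB_LIF array 1), and 343 to 512 genes and 9 to 12 listed genes for LS against LSFF, against 976 genes with all arrays. Without LIF_serum arrays 1 to 4 in turn the last count was 362, 512, 343 and 425. Same-numbered arrays did not deviate together (correlations of −0.59 to 0.40), so the numbers do not pair them; with the replicate number as a block, limma called 5177 genes for EpiSC, 2733 for 2i_LIF, 3033 for 2iSB_LIF and 8 for 2iSB_LIF against 2i_LIF. Signals near background limit the folds of Ccl7, Cxcl1, Cxcl5 and Il6 to bounds. The folds of Ccl2 and Csf1 against the ground-state groups also rest partly on background values.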
